A study of Mus musculus with 2 samples.

Results

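The cells described here are those of the inflamed ear skin that carried transcripts of blood vessel endothelium. They were chosen from the matrix by 4 limits on counts per 1000000 reads of the cell (CPM): the sum of Cdh5 (VE-cadherin) and Pecam1 (CD31) at 100 CPM or more, the sum of the lymphatic genes Prox1 and Mmrn1 under 50 CPM, and both Ptprc (CD45) and Pdgfra under 100 CPM. Of the 8953 barcodes of the matrix, 8359 held at most 20% mitochondrial reads and at least 200 genes, and 480 of these passed the 4 limits. A hashtag gave 441 of them to a group, out of 7500 kept barcodes with a group, so that the gated cells made up 5.88% of the cells. The values of Cdh5, Pecam1, Prox1, Mmrn1, Ptprc and Pdgfra in the gated cells are therefore a result of the choice and not a finding.

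The mice were BALB/c, either wild-type (WT) or Ccr2-/-, and mice of both genotypes were given anti-TNP IgE (300 µg) by vein and, 1 day later, TNP-conjugated ovalbumin (10 µg) into the ear skin. TNP is a hapten, and this procedure is called IgE-mediated chronic allergic inflammation (IgE-CAI). Ears were taken 3 and 5 days after the challenge, which gave 4 groups of genotype and day. Each group was stained with its own hashtag, and 10000 labelled cells were loaded together, with 1 pool for each group. The number of mice per pool is not given in the sources used here. Ccr2, the chemokine receptor with which classical monocytes leave the bone marrow, is absent from the whole body of the Ccr2-/- mice. The hashtag antibodies were of clones M1/42, which binds MHC class I, and 30-F11, which binds CD45, so the group of a cell without CD45 rests on the first of them.

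Blood vessel endothelium lines arteries, capillaries and veins. In inflamed skin, leukocytes leave the blood mainly through post-capillary venules. There P-selectin (Selp) and E-selectin (Sele) let them roll, chemokines shown on the vessel wall activate them, and ICAM-1 and VCAM-1 (Icam1, Vcam1) hold them. NF-kB, switched on by TNF and IL-1, and the interferons raise many of these molecules together with MHC class I. Capillaries carry Gpihbp1, the anchor of lipoprotein lipase, and the fatty acid carriers Cd36 and Fabp4, whereas arteries carry gap junction proteins such as Gja4 and Gja5. All vessels rest on a basement membrane of collagen IV, laminins and nidogens, which endothelial cells and pericytes secrete.

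Less of the gate than its label says was endothelial by its markers. Of the 441 gated cells, 207 (46.9%) had reads of at least 2 of the 5 marker genes Cdh5, Sele, Vwf, Ptprb and Gpihbp1, 53 had reads of 1 and 181 had reads of none. The cells with 2 or more markers numbered 74 in the WT day 3 pool, 29 in the WT day 5 pool, 53 in the Ccr2-/- day 3 pool and 51 in the Ccr2-/- day 5 pool. They made up 62.7% and 56.9% of the gated cells of the WT pools on days 3 and 5 (95% exact intervals 53.3 to 71.4 and 42.2 to 70.7) and 42.7% and 34.5% of those of the Ccr2-/- pools (33.9 to 51.9 and 26.8 to 42.7). The share was lower in both Ccr2-/- pools than in both WT pools, and an exact two-sided permutation test over the pools gave p = 0.33, the smallest that 2 pools against 2 allow.

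What the 2 kinds of gated cell held besides the markers was set against 15 endothelial genes that neither the gate nor the criterion of 2 markers used. The median number of these genes with a read was 12 of 15 in the cells with 2 or more markers, and 205 of the 207 had at least 3. In the 234 cells with 0 or 1 marker the median was 1, and 115 had none. Reads of the 4 leukocyte genes Coro1a, Laptm5, Tyrobp and Fcer1g summed to 200 CPM or more in 187 of these 234 cells (79.9%) and in 10 of the 207 (4.83%). The 2 kinds also differed in depth, with a median of 11752.5 reads in the cells with 0 or 1 marker and of 37272 reads in the others. A marker may thus have been missed in a shallow cell. In the WT day 5 pool the medians were alike, at 36322 and 35226 reads. All gated cells had medians of 35004.5 and 35226 reads in the WT pools on days 3 and 5, and of 13734.5 and 17159 reads in the Ccr2-/- pools. Whether depth had a part in the lower share of cells with 2 or more markers in the Ccr2-/- pools was not tested. The cells with 0 or 1 marker are therefore described only as gated cells, and the description below rests on the 207 cells with 2 or more markers, which held 65.2% of the reads of the gate. The levels of the 5 markers in those cells are partly set by the criterion.

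**Figure D1:**
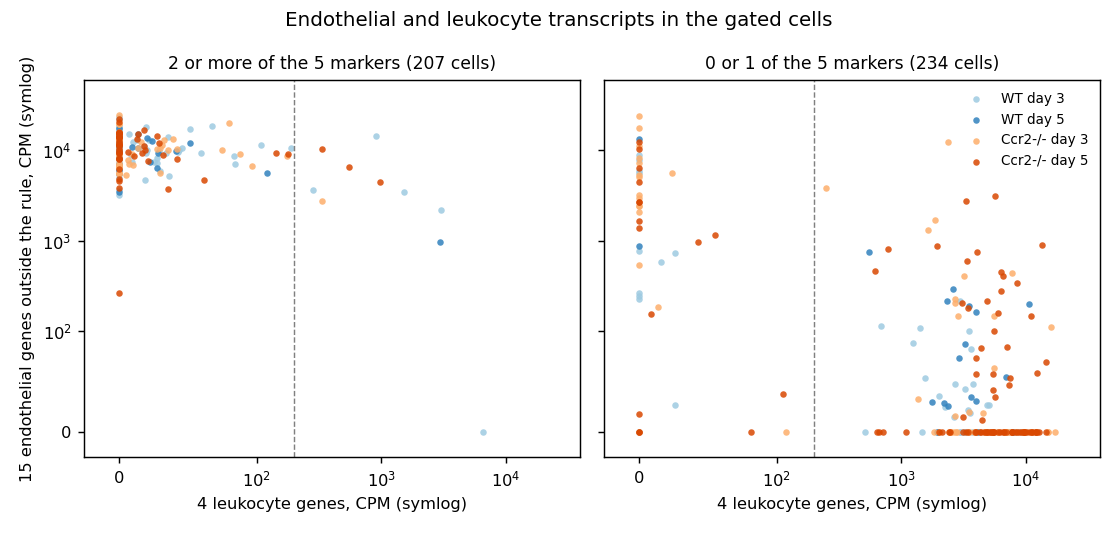
Each point is 1 gated cell of the 4 pools. The horizontal axis gives the summed CPM of 4 leukocyte genes and the vertical axis the summed CPM of 15 endothelial genes outside the gate. Both scales are linear near 0 and logarithmic above. The left panel holds the 207 cells with reads of 2 or more markers and the right panel the 234 with 0 or 1. In the left panel 10 cells lie on or to the right of the dashed vertical line at 200 CPM, and in the right panel 187 do.

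The limits of the gate were not equally sharp. The cell nearest to the limit of Cdh5 plus Pecam1 had 100.1 CPM inside and 97.4 CPM outside, and 1948 cells missed the gate on this limit alone. The limit on Prox1 plus Mmrn1 lay in a gap, with 16.0 CPM for the nearest cell inside and 118.9 CPM for the nearest outside. For Ptprc these values were 93.5 and 104.6 CPM, and 402 cells were left out on that limit alone. For Pdgfra they were 96.1 and 114.2 CPM, with 32 cells left out. In the gated cells 211 had no read of Cdh5 and entered on Pecam1, which many leukocytes and platelets also express.

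Gated cells numbered 118 of 1613 kept cells in the WT day 3 pool (7.32%, 95% exact interval 6.09 to 8.70) and 51 of 1091 in the WT day 5 pool (4.67%, 3.50 to 6.10). They numbered 124 of 2274 in the Ccr2-/- day 3 pool (5.45%, 4.56 to 6.47) and 148 of 2522 in the Ccr2-/- day 5 pool (5.87%, 4.98 to 6.86). The WT pools lay on both sides of the Ccr2-/- pools, the means differed by -0.33 percentage points and the exact permutation test gave p = 1. Counted over the cells with 2 or more markers, the shares were 4.59% and 2.66% in the WT pools and 2.33% and 2.02% in the Ccr2-/- pools, a difference of the means of -1.45 percentage points (exact permutation p = 0.33). A share of all cells also moves with the number of leukocytes, which were 2849 of the kept cells by a gate on Ptprc. Among kept cells with Ptprc under 100 CPM, those with 2 or more markers made up 7.62% and 4.39% in the WT pools. In the Ccr2-/- pools they made up 3.47% and 3.42%. Fewer endothelial cells in the skin and fewer of them recovered cannot be told apart.

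The genotype label was checked on Ccr2. Over all kept cells Ccr2 was at 347 and 341 CPM in the WT pools and at 13.3 and 11.9 CPM in the Ccr2-/- pools, in the order day 3, day 5, which is the order of all pairs of values below. In the cells with 2 or more markers it was at 19.4 and 0.807 CPM in WT and at 4.15 and 1.83 CPM in Ccr2-/- cells, so these cells had few Ccr2 reads in any pool. The median depth of these cells was 37784 and 35226 reads in the WT pools and 31914 and 48064 reads in the Ccr2-/- pools.

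Endothelial identity was read in all 4 pools. Tie1, an orphan receptor of endothelium, was at 222 and 188 CPM in WT and at 204 and 229 CPM in Ccr2-/- cells. Egfl7, a secreted endothelial protein, was at 838 and 888 CPM in WT and at 793 and 767 CPM in Ccr2-/- cells. The junction protein Esam was at 629 and 721 CPM against 745 and 633 CPM, and the VEGF receptor Flt1 at 695 and 813 CPM against 897 and 742 CPM. The genotypes overlapped for Tie1, Esam and Flt1, and both Ccr2-/- pools lay just below WT for Egfl7. The ETS factor Erg, which holds endothelial identity, was at 191 and 282 CPM in WT and at 306 and 262 CPM in Ccr2-/- cells.

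The genes most particular to the cells with 2 or more markers, by the lowest over the 4 pools of the ratio of their CPM to the CPM of all other kept cells, were led by Tmem252 (ratio of 201 or more), the apelin receptor Aplnr (162), the adiponectin relative C1qtnf9 (132) and the factor Sox17 (110). Vwf, Mmrn2, Grrp1, Exoc3l2, Sele, Esam, Ptprb, Cdh5, Robo4, Adgrf5 and Bcam followed, at ratios of 109 down to 53.3. Since the cells were chosen by endothelial reads, these ratios describe the cells and test nothing. Tmem252 was at 229 and 446 CPM in WT and at 123 and 246 CPM in Ccr2-/- cells. C1qtnf9 was at 201 and 478 CPM in WT and at 190 and 243 CPM in Ccr2-/- cells. Aplnr, which takes part in vessel growth, was at 87.7 and 148 CPM in WT and at 128 and 122 CPM in Ccr2-/- cells. No read of Aplnr was counted in the 107 cells of the lymphatic gate.

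The vessel types were then separated by venular genes. Of the 207 cells, 91 had Selp and Ackr1 at 100 CPM or more in sum (36 and 12 of the WT cells, 17 and 26 of the Ccr2-/- cells), which is 48.6% and 41.4% of the WT cells and 32.1% and 51.0% of the Ccr2-/- cells. This split was chosen after the values were seen and is a description. Ackr1 is a carrier that presents chemokines on venules. Sele, whose reads did not enter the split, was at 1097 and 2070 CPM in the WT cells and at 519 and 485 CPM in the Ccr2-/- cells of the Selp/Ackr1 side, and it was at 0, 0, 19.1 and 1.28 CPM on the other side. E-selectin reads thus lay almost wholly on the Selp/Ackr1 side in every pool.

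Other venular genes lay on the same side in all 4 pools. Lrg1, a secreted glycoprotein, was at 1207, 1149, 689 and 1209 CPM in the Selp/Ackr1 cells, with the WT pools first and day 3 before day 5, and at 284, 74.3, 371 and 230 CPM in the other cells. Icam1 was at 394, 895, 352 and 522 CPM against 152, 502, 72.2 and 82.5 CPM. Il6st, the signalling chain of the IL-6 receptor, was at 1941, 1756, 509 and 1594 CPM, against 335 to 483 CPM in the other cells. The fenestral diaphragm protein Plvap was at 4520, 3576, 3346 and 3940 CPM, against 1509 to 2346 CPM.

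Several capillary and arterial genes lay on the other side. Timp4, an inhibitor of matrix proteases, was at 251, 460, 125 and 172 CPM in the cells without Selp/Ackr1 and at 0.385, 0, 6.04 and 15.4 CPM in those with them. Gja4 (connexin 37) was at 153, 48.5, 83.7 and 99.1 CPM against 8.48, 0, 0 and 1.77 CPM. The class 3 semaphorin Sema3g was at 407, 111, 90.7 and 166 CPM against 5.01, 0, 0 and 9.27 CPM, and no Gja5 read was counted in the 91 Selp/Ackr1 cells. The chemokine Cxcl12 was at 598, 996, 673 and 918 CPM against 128, 119, 57.8 and 152 CPM. Gpihbp1 and Cd36 differed less, with Cd36 at 1434, 2387, 829 and 1264 CPM against 735, 405, 445 and 685 CPM.

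**Figure D2:**
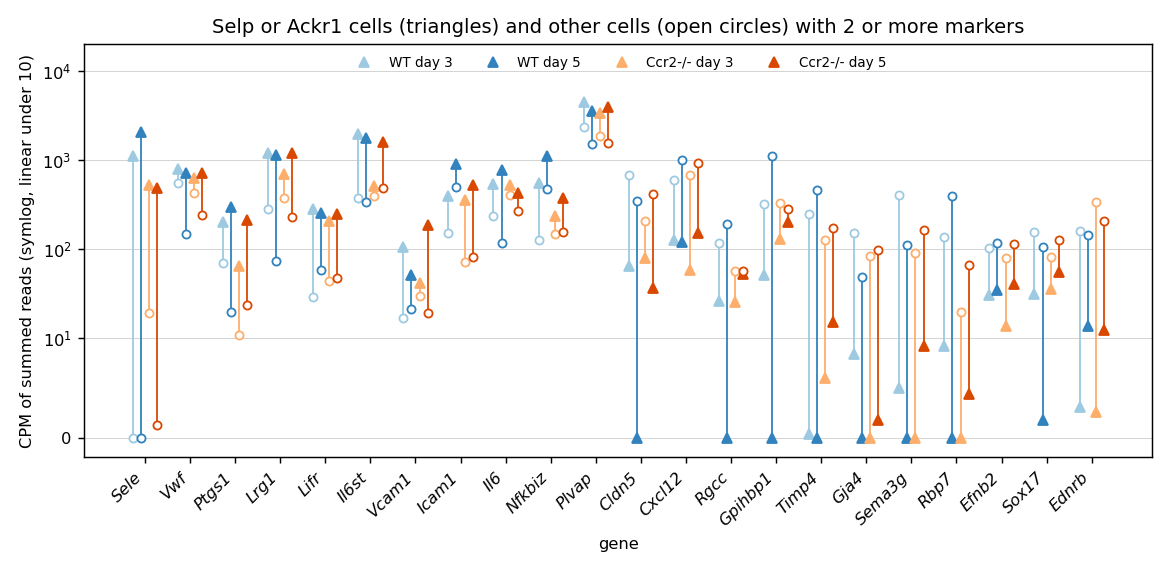
Levels of 22 genes in CPM of summed reads on a logarithmic axis, with 1 symbol per pool. Filled triangles are the 91 cells with Selp plus Ackr1 at 100 CPM or more and open circles the other 116 cells with 2 or more markers. Sele and Lrg1 lie higher on the side of the triangles in all 4 pools, and Timp4, Gja4 and Sema3g higher on the side of the circles.

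Depth differed between the sides, with a median of 50247 reads in the Selp/Ackr1 cells and of 25425.5 reads in the other cells. Single cells were therefore also compared after thinning to 10000 reads, which left out 21 shallower cells. Of the remaining 186 cells, 64 had reads of both Selp and Sele, 25 of Selp alone, 3 of Sele alone and 94 of neither. For Selp and Gja4, 3 cells had reads of both, 86 of Selp alone, 24 of Gja4 alone and 73 of neither. Selp and the capillary gene Car4 (carbonic anhydrase 4) were read together in 54 cells, Selp alone in 35, Car4 alone in 48 and neither in 49. Car4 reads were thus spread over both sides, unlike those of Gja4.

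Genotypes were compared over reads summed per pool, with day as a covariate, by edgeR's quasi-likelihood test. The sums came from 1 pool per genotype and day, so 1 residual degree of freedom was left, and the p-values measure the spread between these pools. In the gated cells none of 14229 genes was called between the genotypes at an adjusted p of 0.05 (0%) or between the days (0%). At an unadjusted p under 0.05 there were 680 and 466 genes, and DESeq2 called 114 and 22. Without the day term, edgeR called 59 genes between the genotypes when the WT day 3 pool was left out, and 2, 1 and 0 when the WT day 5, Ccr2-/- day 3 or Ccr2-/- day 5 pool was. The lone pool of a genotype is then assumed to vary like the 2 of the other.

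The smallest p-values of the gated cells belonged to leukocyte genes. Il1b (interleukin-1 beta) was at 161 and 223 CPM in WT and at 1036 and 2185 CPM in Ccr2-/- gated cells, a log2 difference of 2.99 (adjusted p = 0.40, edgeR). Clec7a, the beta-glucan receptor of myeloid cells, was at 28.8 and 16.6 CPM in WT and at 495 and 838 CPM in Ccr2-/- gated cells, a log2 difference of 4.86. Both Ccr2-/- pools lay above both WT pools for these genes, as they did for 17.9% of all tested genes, and they lay below for 17.3%. The 8 neutrophil marker genes summed to 430 and 144 CPM in WT and to 1585 and 2421 CPM in Ccr2-/- gated cells, with all 8 genes higher in Ccr2-/- cells. The 10 monocyte and macrophage markers summed to 2104 and 5258 CPM in WT and to 1528 and 827 CPM in Ccr2-/- gated cells, with a negative difference for all 10 genes and both Ccr2-/- pools below both WT pools for 7.

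These differences turned with the choice of cells. In the cells with 2 or more markers the log2 difference of Il1b was -1.20, of Clec7a -2.23, of the chemokine Ccl3 -1.20 and of the neutrophil receptor Cxcr2 -0.38, against 2.99, 4.86, 4.72 and 3.41 in all gated cells. Sele was among the genes with the smallest p in the gated cells too, at 509 and 475 CPM in WT and at 145 and 190 CPM in Ccr2-/- cells (log2 difference of -1.56, unadjusted p = 0.0018, adjusted p = 0.70). Its difference was negative in each of the 4 choices of cells plotted. The choice by 2 or more markers used Sele reads, and the other choices did not. The part of leukocyte reads in the gated differences is given by the marker sums above.

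**Figure D3:**
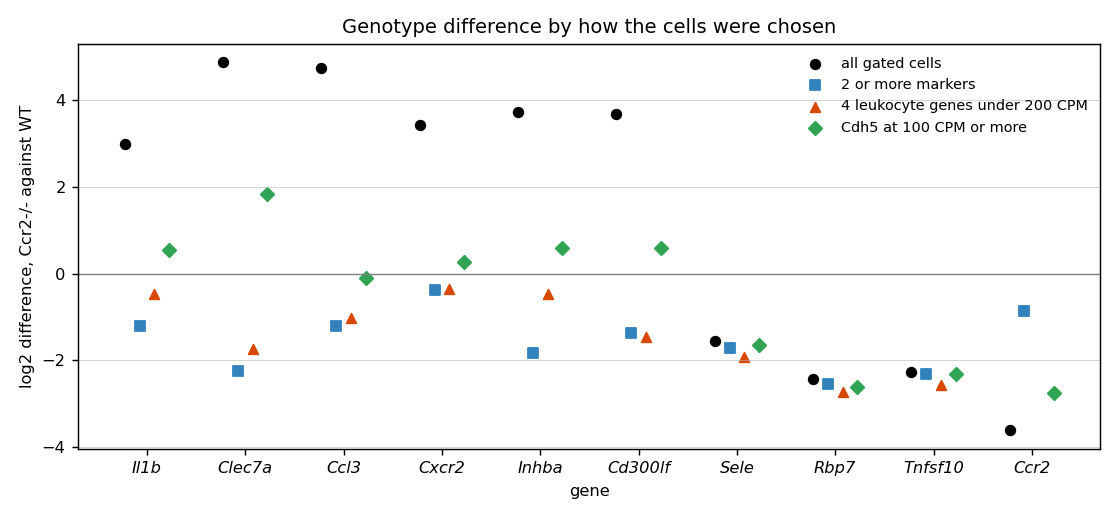
Genotype difference (log2, Ccr2-/- against WT, from edgeR) of 10 genes in 4 choices of cells: all gated cells, cells with 2 or more markers, gated cells with 4 leukocyte genes under 200 CPM, and gated cells with Cdh5 at 100 CPM or more. The points of Il1b and Clec7a lie above 0 in all gated cells and below 0 in the cells with 2 or more markers, whereas those of Sele lie below 0 in all 4 choices.

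In the cells with 2 or more markers, edgeR called 0 of 12518 genes between the genotypes (0%) and 0 between the days (0%). At an unadjusted p under 0.05 there were 542 and 439 genes, and DESeq2, which was added after the data were seen, called 58 and 9. Without the day term, edgeR called 63 genes between the genotypes when the WT day 3 pool was left out, and 1, 2 and 1 when the WT day 5, Ccr2-/- day 3 or Ccr2-/- day 5 pool was. In such a fit 1 genotype has a single pool, which is assumed to vary like the 2 pools of the other, and those differ by day. For 18.6% of the tested genes both Ccr2-/- pools lay above both WT pools and for 17% below, so pools that do not overlap are common and say little of a single gene. All differences named below failed the adjusted threshold of edgeR unless it is said otherwise.

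Leukocyte reads were fewer in these cells but not equal between pools. The 10 leukocyte markers summed to 917 and 993 CPM in WT and to 428 and 537 CPM in Ccr2-/- cells. The 10 monocyte and macrophage markers summed to 582 and 1938 CPM in WT and to 70.9 and 63.2 CPM in Ccr2-/- cells, and the 8 neutrophil markers to 180 and 54.9 CPM against 81.0 and 73.4 CPM. Of the 12 genes with the smallest p among those lower in Ccr2-/- cells, macrophage genes such as Mrc1, Retnla, Csf1r and Ms4a6d made up a large part. When the 10 cells with 200 CPM or more of the 4 leukocyte genes were left out, Mrc1 was at 13.5 and 22.3 CPM in WT and at 8.78 and 9.80 CPM in Ccr2-/- cells. The log2 difference of Retnla was then -0.27, that of the chemokine Ccl8 -0.48 and that of Cxcl2 -0.36. The values below are therefore also given for the 197 cells that remained (69 and 28 WT cells, 52 and 48 Ccr2-/- cells) where they moved.

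Of the adhesion molecules, Sele, a marker whose level in these cells is partly set by the criterion, had the smallest p. It was at 699 CPM on day 3 and 968 CPM on day 5 in WT, and at 219 and 288 CPM in Ccr2-/- cells. Both WT pools lay above both Ccr2-/- pools, and their counting intervals were apart (673.9 to 725.5 and 914.4 to 1025 CPM against 202.6 to 237.1 and 271.0 to 305.2 CPM). These intervals take each read as a separate count and leave out the spread between cells and mice. The log2 difference was -1.71 (unadjusted p = 0.00027, adjusted p = 0.44 by edgeR, 2.88e-07 by DESeq2). The share of cells with a Sele read was 39.2% and 34.5% in WT and 35.8% and 39.2% in Ccr2-/- cells. With each cell thinned to 10000 reads it was 37.7% and 41.7% in WT (95% exact intervals 26.3 to 50.2 and 22.1 to 63.4) and 33.3% in both Ccr2-/- pools (20.001 to 49.0 and 20.4 to 48.4). Among the cells with a Sele read the median was 1231 CPM (29 cells) and 2192 CPM (10 cells) in WT and 468 CPM (19 cells) and 622 CPM (20 cells) in Ccr2-/- cells. The pools of the genotypes were apart in the level per cell with a read, and the intervals of the thinned shares overlapped. In fibroblasts 2.11% to 4.29% of the cells had a Sele read. The fibroblasts were deeper, with a median of 102966.5 reads beside 37272 in the cells with 2 or more markers. Sele reads were concentrated, and with the single cell of the most reads left out of each pool Sele was at 537 and 799.9 CPM in WT and at 158 and 221 CPM in Ccr2-/- cells. In the 197 cells without leukocyte genes the values were 761 and 1070 CPM against 217 and 300.0 CPM (log2 difference of -1.84, adjusted p = 0.41 by edgeR).

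The other adhesion genes differed less. Icam1 was at 306 and 686 CPM in WT and at 184 and 343 CPM in Ccr2-/- cells, so the WT day 3 pool lay below the Ccr2-/- day 5 pool (log2 difference of -0.87, unadjusted p = 0.010). Selp was at 1286 and 688 CPM against 433 and 982 CPM, with overlapping pools and a log2 difference of -0.53. Vcam1 was at 74.2 and 35.5 CPM against 34.9 and 119 CPM. Podxl, a sialomucin of the vessel wall, was at 372 and 355 CPM against 374 and 390 CPM, and Icam2, which endothelium carries at rest, at 155 and 215 CPM against 142 and 194 CPM. Of the 10 adhesion genes tested, 4 had a positive log2 difference, and the median was -0.34, beside 0.04 over all 12518 genes. Both Ccr2-/- pools lay above WT for Cd34 and Podxl and below for Sele. These counts are near the shares over all tested genes, which were 18.6% above and 17% below.

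Chemokines and their carrier showed no common direction. Ackr1 was at 706 and 568 CPM in WT and at 125 and 464 CPM in Ccr2-/- cells, below WT on both days, with a log2 difference of -1.39 (unadjusted p = 0.043). Cxcl12 was at 298 and 586 CPM against 427 and 465 CPM. Ccl2, the main ligand of CCR2, was at 136 and 195 CPM in WT and at 82.4 and 733 CPM in Ccr2-/- cells, so that the Ccr2-/- pools held both the lowest and the highest value. Of the 14 genes of this list that were tested, 8 had a positive log2 difference and the median was 0.08. Il6, which endothelium secretes in inflammation, was at 425 and 421 CPM against 456 and 365 CPM.

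MHC class I genes had lower values in both Ccr2-/- pools. B2m, the light chain of all class I molecules, was at 4543 and 3114 CPM in WT and at 2480 and 1868 CPM in Ccr2-/- cells (log2 difference of -0.81, unadjusted p = 0.0040, adjusted p = 0.027 by DESeq2). H2-D1 was at 3966 and 3270 CPM against 1517 and 1718 CPM, a log2 difference of -1.16. H2-K1 was at 1673 and 1592 CPM against 627 and 773 CPM (log2 difference of -1.23, unadjusted p = 0.0012, adjusted p = 0.83 by edgeR, 0.000147 by DESeq2). Over single cells, the median of H2-K1 was 1424 and 1699 CPM in WT, against 452 and 648 CPM in Ccr2-/- cells, so the difference did not rest on a few cells. H2-K1, H2-D1 and H2-Q7 are related class I genes of similar sequence. Reads of BALB/c mice were aligned to transcripts of another strain, so a read of any of these genes may have been counted on another. The genotype groups were told apart by an antibody to class I proteins, and whether that staining plays a part was not tested.

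Tapbp (tapasin), which helps to load class I molecules, was at 278 and 178 CPM in WT and at 190 and 219 CPM in Ccr2-/- cells. Of the 10 antigen presentation genes tested, none had a positive log2 difference, beside 52.3% of all 12518 genes. The list also holds class II genes such as H2-Eb1, which macrophages carry too, and macrophage markers were higher in the WT pools of these cells. Both Ccr2-/- pools lay below WT for B2m, H2-K1, H2-D1 and H2-Eb1, as they did for 17% of all genes. The median log2 difference of the list was -0.60.

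Many interferon response genes are raised together with class I by interferon-gamma and the type I interferons. Of the 18 tested, 2 had a positive log2 difference, beside 52.3% of all 12518 genes, and the median was -0.60. Both Ccr2-/- pools lay below WT for 11 of the 18, beside 17% of all genes. Among the 11 were Ifit1, Ifit3, Isg15, Rsad2, Irf7, Irf1, Gbp3, Gbp4, Iigp1 and Psmb9. The factor Irf1 was at 447 and 682 CPM in WT and at 166 and 252.5 CPM in Ccr2-/- cells (log2 difference of -1.43, unadjusted p = 0.00083, adjusted p = 0.69 by edgeR, 0.000406 by DESeq2). The GTPase Iigp1 was at 536 and 456 CPM against 398 and 310 CPM, and Isg15, a ubiquitin-like protein, at 120 and 84.7 CPM against 73.4 and 33.9 CPM. Tnfsf10 (TRAIL) was at 117 and 107 CPM against 29.4 and 16.7 CPM, a log2 difference of -2.32 (adjusted p = 0.011 by DESeq2). None of the 18 was higher in both Ccr2-/- pools. The receptors for interferons Ifngr1, Ifnar1 and Ifnar2 also lay lower in both Ccr2-/- pools, with log2 differences of -0.37, -1.11 and -0.56.

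Of the 12 NF-kB response genes tested, 3 had a positive log2 difference and the median was -0.28. Nfkbiz, a nuclear partner of NF-kB, was at 399 and 780 CPM in WT and at 183 and 285 CPM in Ccr2-/- cells (log2 difference of -1.29, unadjusted p = 0.0017, adjusted p = 0.0034 by DESeq2). Ier3 was at 896 and 1568 CPM against 593 and 861 CPM. Nfkbia, the inhibitor that NF-kB itself induces, differed little, at 1280 and 1965 CPM against 1245 and 1496 CPM. Both Ccr2-/- pools lay below WT for Nfkbiz, Tnfaip3 and Ier3 and above for none, beside 17% and 18.6% of all tested genes. Genes that dissociation of tissue also raises leaned the same way: 1 of 12 early response genes had a positive log2 difference, the median was -0.43, and Zfp36 was at 1624 and 2685 CPM in WT and at 1097 and 1344 CPM in Ccr2-/- cells. Whether handling of the tissue had a part in the NF-kB genes was not tested.

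NF-kB is known to act on class I genes and on Sele, and the sequences before their starts are shown so that the letters can be compared. Each run is the 250 bases before a transcript start in RefSeq on GRCm38.p6, read 5′ to 3′ on the strand of the gene, from the C57BL/6J reference and not from these mice. Capitals mark, on either strand, the letters GGGNNTTCC or GGGNNTTTC, 2 short forms of the NF-kB site (they overlap no other motif searched). Capitals also mark TATAAA, the letters of a TATA box, on either strand. Whether a marked TATAAA acts as a TATA box was not tested. H2-K1 lies at chr17:34000348-34000597 (minus strand), H2-D1 at chr17:35262844-35263093 (plus), B2m at chr2:122147437-122147686 (plus) and Sele at chr1:164047984-164048233 (plus).
H2-K1: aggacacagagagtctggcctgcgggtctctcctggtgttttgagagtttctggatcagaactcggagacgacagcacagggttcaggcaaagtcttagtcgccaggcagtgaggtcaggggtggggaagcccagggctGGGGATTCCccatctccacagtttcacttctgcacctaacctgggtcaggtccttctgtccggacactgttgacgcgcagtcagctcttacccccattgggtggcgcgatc
H2-D1: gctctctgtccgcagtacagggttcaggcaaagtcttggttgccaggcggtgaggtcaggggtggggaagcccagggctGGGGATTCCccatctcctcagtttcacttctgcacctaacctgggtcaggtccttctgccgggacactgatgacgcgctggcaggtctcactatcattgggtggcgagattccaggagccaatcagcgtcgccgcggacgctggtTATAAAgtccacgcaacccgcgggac
B2m: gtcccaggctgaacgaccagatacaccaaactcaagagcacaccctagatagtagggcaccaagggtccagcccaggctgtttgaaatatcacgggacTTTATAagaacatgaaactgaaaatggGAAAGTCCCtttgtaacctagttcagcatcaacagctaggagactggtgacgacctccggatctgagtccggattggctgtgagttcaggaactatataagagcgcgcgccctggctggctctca
Sele: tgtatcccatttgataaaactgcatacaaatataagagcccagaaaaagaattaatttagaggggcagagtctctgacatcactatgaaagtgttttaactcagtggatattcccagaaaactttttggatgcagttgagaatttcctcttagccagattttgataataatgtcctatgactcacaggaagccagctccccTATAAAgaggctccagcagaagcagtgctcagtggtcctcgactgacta

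The letters GGGNNTTCC were found in both class I windows, with the same match GGGGATTCC, 111 bases before the start of H2-K1 and 171 bases before that of H2-D1. The H2-K1 and H2-D1 windows share a run of 47 bases that holds the match. B2m held GAAAGTCCC, the other strand of GGGNNTTTC, 125 bases before its start. The TTTATA of B2m, 152 bases before the start, is TATAAA on the other strand. The Sele window held TATAAA 49 bases before the start and neither form of the NF-kB letters. Of 32851 windows of the same length, 4.98% held GGGNNTTCC, 3.72% GGGNNTTTC, 8.14% either, and 12.4% TATAAA. A match is a description of letters, and its absence says only that these letters are not in this window. The Ackr1 window held GGAAGCCCC, the other strand of GGGNNTTCC, 131 bases before its start, and the windows of Selp, Icam1, Irf1 and Tap1 held none of the 3 motifs.

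Basement membrane genes had the opposite sign. All 12 tested genes of the list had a positive log2 difference, beside 52.3% of all 12518 genes, with a median of 0.53. Both Ccr2-/- pools lay above WT for 7, beside 18.6% of all genes: Col4a1, Col4a2, Lama4, Lamc1, Nid1, Sparc and Col15a1. Fibroblast reads leaned the same way in these cells. The 8 fibroblast markers summed to 1409 and 1149 CPM in WT and to 1259 and 4008 CPM in Ccr2-/- cells. Of these markers 7 had a positive log2 difference, with a median of 0.59. Whether fibroblast reads had a part in the basement membrane genes was not tested. Col4a1, the main chain of collagen IV, was at 1159 and 582 CPM in WT and at 1889 and 2004 CPM in Ccr2-/- cells (log2 difference of 1.24, unadjusted p = 0.0063, adjusted p = 0.0036 by DESeq2). Col4a2 was at 786 and 530 CPM against 1434 and 1353 CPM, a log2 difference of 1.11 (adjusted p = 0.95 by edgeR, 0.0038 by DESeq2). These 2 genes lie head to head on chromosome 8, with first transcribed bases at 11312826 (Col4a1, minus strand) and 11312805 (Col4a2, plus strand) on GRCm38.p6 in RefSeq. Over single cells the median of Col4a1 was 741 and 553 CPM in WT, against 1485 and 1266 CPM in Ccr2-/- cells. Sparc, which binds collagen, was at 5300 and 3762 CPM against 6415 and 6919 CPM, and the linker Nid1 at 228 and 147 CPM against 265 and 332 CPM.

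**Figure D4:**
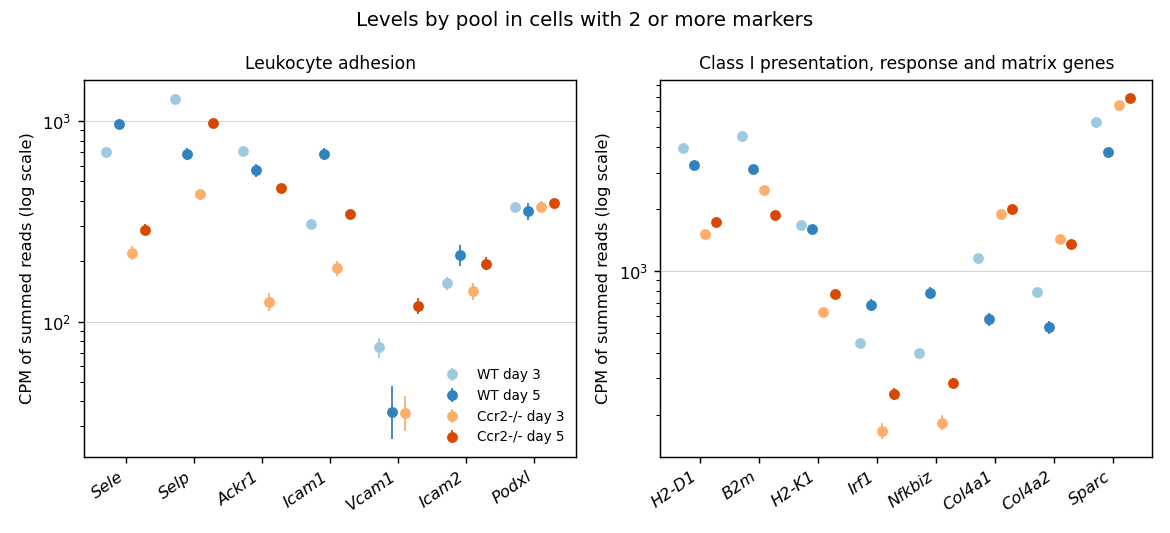
Levels of 15 genes in the cells with 2 or more markers, in CPM of summed reads on a logarithmic axis, with 1 point per pool and 95% exact Poisson intervals that cover counting error only. For Sele, H2-K1 and Irf1 the Ccr2-/- points lie below both WT points, and for Col4a1 and Col4a2 above both.

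Of the 13 genes of coagulation and fibrinolysis tested, 9 had a positive log2 difference and the median was 0.35. Both Ccr2-/- pools lay above WT for 5, among them Tfpi, F2r, Plaur and Tfpi2, and below for none. Over all tested genes these shares were 18.6% and 17%, and 52.3% had a positive log2 difference. Vwf was at 704 and 411 CPM against 507 and 527 CPM, and thrombomodulin (Thbd) at 66.6 and 171 CPM against 118 and 158 CPM. The tetraspanin Cd63, which keeps P-selectin on the surface of endothelium, was at 161 and 177 CPM in WT and at 401 and 417 CPM in Ccr2-/- cells, a log2 difference of 1.27 (unadjusted p = 0.0019). S100a6, a calcium-binding protein, was at 2353 and 1840.0 CPM against 4568 and 3426 CPM, a log2 difference of 0.92.

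Genes of vascular tone went both ways. Edn1 (endothelin-1), a constrictor, was at 161 and 324 CPM in WT and at 35.6 and 159 CPM in Ccr2-/- cells (log2 difference of -1.59, unadjusted p = 0.0051, adjusted p = 0.026 by DESeq2). In the WT day 5 pool 58.6% of the Edn1 reads came from 1 cell, and without the top cell of each pool Edn1 was at 143 and 144 CPM against 29.7 and 118 CPM. Nos3, which makes nitric oxide, was at 122 and 54.9 CPM against 139 and 130 CPM, and Ece1, which activates endothelin, at 1224 and 715 CPM against 1293 and 1240 CPM. Of the 14 genes tested, both Ccr2-/- pools lay above WT for 4 and below for 6, beside 18.6% and 17% of all tested genes.

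Capillary genes were mostly lower. Of the 10 tested, 1 had a positive log2 difference, beside 52.3% of all 12518 genes. Both Ccr2-/- pools lay below WT for Rgcc, Cd36, Timp4, Cd300lg, Tcf15 and Meox2, as they did for 17% of all tested genes. Fabp4 was at 6542 and 9415 CPM in WT and at 4908 and 6991 CPM in Ccr2-/- cells, so the pools overlapped (log2 difference of -0.42). Cd36 was at 989 and 1460 CPM against 675 and 921 CPM, a log2 difference of -0.61. Car4 was the exception, at 1084 and 68.6 CPM in WT and at 1300 and 672 CPM in Ccr2-/- cells, a log2 difference of 1.71 that rested on the low WT day 5 pool. Arterial genes showed no lean: 5 of 12 were positive, the median was -0.12, and no gene had pools that failed to overlap. Of the 9 tip cell genes tested, 8 had a positive log2 difference, with a median of 0.33.

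In the list of 12 VEGF, angiopoietin and BMP receptors 5 had a positive log2 difference and the median was -0.03. Kdr (VEGFR2) was at 301 and 587 CPM in WT and at 369 and 501 CPM in Ccr2-/- cells. Tek (TIE2) was at 203 and 207 CPM against 173 and 200.0 CPM. Among 19 cytokine receptors 6 had a positive log2 difference, with a median of -0.37. Both Ccr2-/- pools lay below WT for Il1rap, Il1rl1, Il13ra1, Il10rb, Ifngr1, Ifnar1 and Ifnar2 and above for Osmr. Over all tested genes these shares were 17% and 18.6%. Csf2rb, the shared chain of the IL-3, IL-5 and GM-CSF receptors, was at 835 and 319 CPM in WT and at 1214 and 735 CPM in Ccr2-/- cells (log2 difference of 0.87, unadjusted p = 0.013). Il4ra, through which IL-4 acts on vessels, was at 182 and 111 CPM against 290 and 140 CPM. The IL-4 and IL-13 response list had 1 of 8 genes with a positive log2 difference and a median of -0.79, but Retnla and Chil3 in it are also macrophage genes. Retnla was at 128 and 195 CPM against 5.88 and 4.96 CPM before the leukocyte-gene cells were left out.

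**Figure D5:**
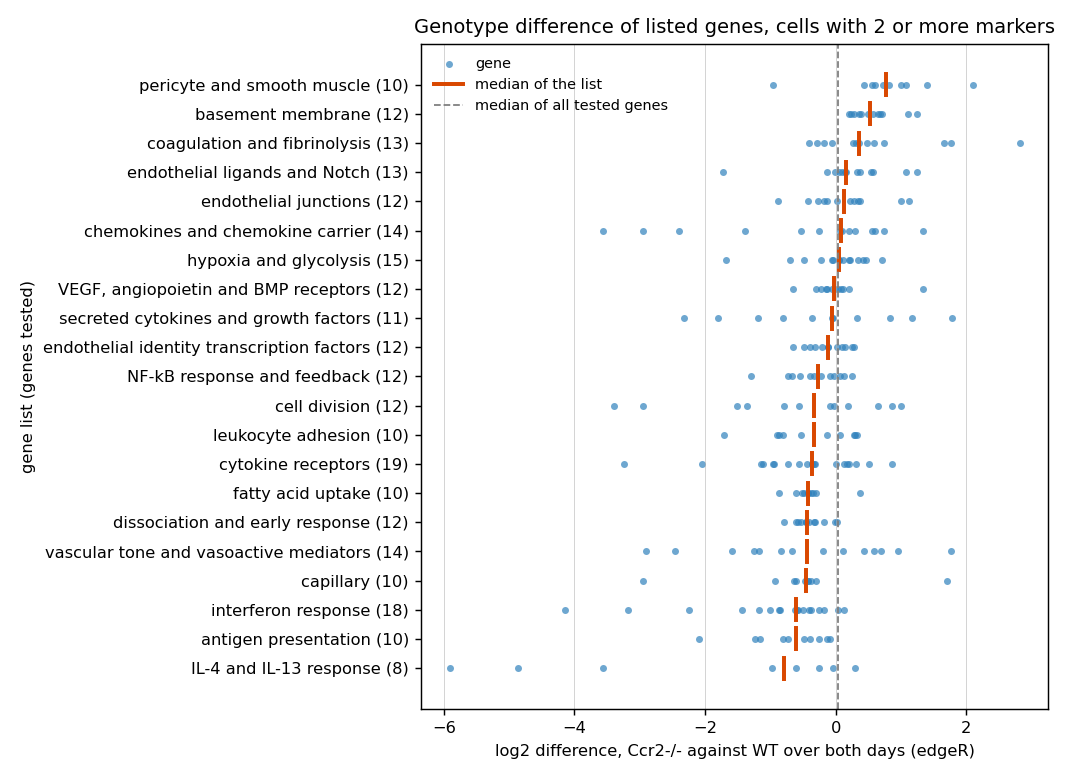
Genotype difference (log2, Ccr2-/- against WT, from edgeR) of each tested gene in the cells with 2 or more markers, by list, with the median of the list as a bar. The dashed line is the median of all 12518 tested genes (0.04). The points of the 12 basement membrane genes lie above 0, and those of the 10 antigen presentation genes below 0.

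Transcripts of pericytes, the contractile cells that wrap small vessels, were read in part of the cells with 2 or more markers. Of the 207 cells, 62 had Rgs5 at 1000 CPM or more or a read of Pdgfrb. In these 62 cells Rgs5 was at 2725 CPM, the channel subunit Kcnj8 at 171 CPM and Abcc9 at 256 CPM, against 29.6, 0.278 and 1.39 CPM in the other 145. Cdh5 was at 599 CPM in the 62 cells and at 796 CPM in the 145, but at 0.519 CPM in the pericyte gate, so the 62 cells carried reads of both kinds. Scrublet, a doublet caller, marked 2 of the 441 gated cells (0.454%) and 102 of all kept cells (1.22%), and whether the 62 are endothelial cells with pericytes attached was not tested.

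The 10 pericyte and smooth muscle markers summed to 2471 and 798 CPM in WT and to 2767 and 1551 CPM in Ccr2-/- cells, and their median log2 difference was 0.77 between the genotypes and -1.66 between the days. The genotypes overlapped in this sum, and both Ccr2-/- pools lay above WT for 2 of the 10 genes, beside 18.6% of all tested genes. Both day 5 pools lay below both day 3 pools for 8, beside 17.1% of all tested genes. Without the 62 cells (52 and 22 WT cells, 33 and 38 Ccr2-/- cells) edgeR called 32 genes between the genotypes, and 24 of these were among the 58 that DESeq2 called over all cells with 2 or more markers. These calls were mostly macrophage and other leukocyte genes that were lower in Ccr2-/- cells, such as Mrc1, Lyz2, Ctss, C1qa and Fcgr3, and cells with leukocyte genes had not been removed from the 145. Lyz2 was at 177 and 1312 CPM in WT and at 11.4 and 8.74 CPM in Ccr2-/- cells. Sele was then at 862 and 936 CPM in WT and at 290 and 409 CPM in Ccr2-/- cells (log2 difference of -1.40, adjusted p = 0.072). H2-D1 had a log2 difference of -1.27 (adjusted p = 0.088), H2-K1 of -1.22 (adjusted p = 0.13), Col4a1 of 1.35 (adjusted p = 0.16) and Col4a2 of 1.23 (adjusted p = 0.13). The differences of these 5 genes had the same sign without the cells that carried pericyte reads, and none of them passed the adjusted threshold. The related class I gene H2-Q7 did pass it (log2 difference of -2.04, adjusted p = 0.043), at 277 and 167 CPM in WT and at 76.9 and 36.7 CPM in Ccr2-/- cells. Among the interferon genes, Irf1 had a log2 difference of -1.22 without the 62 cells, whereas Isg15 (77.4 and 53.2 CPM against 76.9 and 34.1 CPM) and Irf7 (95.9 and 16.4 CPM against 51.8 and 19.7 CPM) overlapped between the genotypes, with log2 differences of -0.34 and -0.37 beside -1.01 and -1.17 with them.

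Between day 3 and day 5 no gene was called in these cells. Both day 5 pools lay above both day 3 pools for 15.4% of the tested genes and below for 17.1%. Icam1 was higher on day 5 within each genotype, from 306 to 686 CPM in WT and from 184 to 343 CPM in Ccr2-/- cells (log2 difference of 1.03, unadjusted p = 0.0049). Of the 10 adhesion genes, Icam1, Icam2 and Cd99l2 had both day 5 pools above both day 3 pools. In the NF-kB list Nfkb1, Nfkbia, Tnfaip2, Birc3 and Socs3 did, and the median log2 difference was 0.44. The factor Sox18 was at 248 CPM on day 3 and 500.4 CPM on day 5 in WT and at 211 and 340 CPM in Ccr2-/- cells. Edn1 was higher on day 5 in each genotype, with a log2 difference of 1.57 (unadjusted p = 0.0054).

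Other genes were lower on day 5. Csf2rb went from 835 to 319 CPM in WT and from 1214 to 735 CPM in Ccr2-/- cells, a log2 difference of -1.05 (unadjusted p = 0.0055). Il1r1, the signalling receptor for IL-1, went from 198 to 73.4 CPM in WT and from 184 to 108 CPM in Ccr2-/- cells. Rgs5 was at 1085 and 467 CPM in WT and at 1591 and 995 CPM in Ccr2-/- cells, and Pdgfrb at 82.8 and 29.9 CPM against 177 and 30.8 CPM. Cell division genes had a positive median between the days (0.73), with Mki67 at 18.7 and 20.2 CPM in WT and at 8.65 and 41.8 CPM in Ccr2-/- cells, levels that rest on few cells.

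Whether these genotype differences also appeared in fibroblasts of the same pools, which share free RNA with the endothelial cells, was tested by the interaction of cell type and genotype. In all gated cells the test called 0 of 18337 genes (0%), with 986 at an unadjusted p under 0.05 and 92 by DESeq2. In the cells with 2 or more markers it called 1 of 17803 (0.00562%), Mmp19, and DESeq2 called 35. Sele had a difference of differences of -2.15 (unadjusted p = 0.00021, adjusted p = 0.48) and was at 0.994 and 1.49 CPM in WT and at 1.20 and 2.32 CPM in Ccr2-/- fibroblasts. For H2-K1 the difference of differences was -0.93, for H2-D1 -0.60, for B2m -0.64, for Irf1 -0.50, for Nfkbiz -0.63, for Col4a1 1.03 and for Col4a2 0.93, and all of these missed the threshold.

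The neighbouring gates give the same genes in other cells. In the 107 cells of the lymphatic gate H2-K1 was at 1546 and 899 CPM in WT and at 930 and 731 CPM in Ccr2-/- cells, and in the 2068 fibroblasts at 1042 and 522 CPM against 742 and 501 CPM. Irf1 was at 313.9 and 563 CPM in WT and at 190 and 244 CPM in Ccr2-/- lymphatic cells, and at 300.4 and 359 CPM against 195 and 156 CPM in fibroblasts, so it was lower in both Ccr2-/- pools there too. Nfkbiz was at 403 and 421 CPM against 201 and 220 CPM in lymphatic cells. Col4a1 was at 351 and 279 CPM in WT and at 641 and 830 CPM in Ccr2-/- lymphatic cells. In fibroblasts it was at 501 and 434 CPM against 511 and 584 CPM. In the 263 cells of the pericyte gate it was at 664 and 1084 CPM against 505 and 716 CPM. Lower values of Irf1 and Nfkbiz in both Ccr2-/- pools were thus also read in lymphatic cells. Col4a1 was higher in both Ccr2-/- pools in both kinds of endothelial gate and, by less, in fibroblasts, but not in the pericyte gate.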

How the data were processed

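Single cells of whole ear skin were captured in BD Rhapsody microwells and measured by TAS-Seq as 1 cDNA library and 1 hashtag library. The deposited values are counts of reads per gene or hashtag and barcode. Trimming by the authors used Cutadapt and alignment to mouse transcripts (GRCm38.p6) used Bowtie2, and only barcodes past the inflection point of the knee curve are in the matrix. The methods describe a subtraction of background reads, but 22.1% of the values above 0 were 1. Reads are not molecules, and PCR copies were counted separately, so intervals cover counting error only. The matrix held 3113 to 713596 reads per barcode (median 28324) and 35208 gene rows.

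Each hashtag column was divided by its total, and a barcode went to the highest of the 4 hashtags if it was at least 3 times the next. Of the gated cells, 39 (8.12%) had no group, and 9 further hashtag columns were not used. Reads were summed per pool and tested with edgeR 4.0.16 in R 4.3.3 (quasi-likelihood test, TMM, filterByExpr, day and genotype as terms, Benjamini-Hochberg over all tested genes, threshold 0.05). The interaction with fibroblasts (Pdgfra at 100 CPM or more) had the pool as a block. DESeq2 1.42.0, other normalizations, filters, gates, depths, hashtag limits, thinning to 10000 reads, removal of cells that Scrublet marked and leaving out each pool were alternatives. The tests were checked on simulated data.

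Named genes were the markers and gate genes. In each list they were the called genes or, where none was called, up to 6 of the highest mean CPM. The 12 genes with the smallest p in each direction were added, with at least 20 CPM in the higher group, as were the 15 with the highest ratio to other cells at 50 CPM or more. Genes outside this rule (Ccr2 apart) were named after their values were seen where a count or a pattern of a list rested on them. The members and the gene lists were chosen with earlier results of these data known. Gene positions are from GENCODE M21, and promoter windows from a RefSeq table that held 9 of 13 genes looked up. Some genes that this rule would name are not reported here.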

Additional observations from a re-analysis of the deposited data

Results flagged for a closer look

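Mmp19, a matrix metalloproteinase, was the 1 gene whose genotype difference in the cells with 2 or more markers differed from that in fibroblasts of the same pools (log2 difference of differences of -4.89, adjusted p = 0.030, edgeR, interaction of cell type and genotype over 4 pools). It was at 187 and 163 CPM in the WT pools and at 14.2 and 18.5 CPM in the Ccr2-/- pools of these cells, in the order day 3, day 5. In fibroblasts it was at 333 and 295 CPM in WT and at 1099 and 713 CPM in Ccr2-/- cells. A single cell gave 82.4% and 85.1% of the Mmp19 reads of the WT pools. When the cells with reads of leukocyte genes were left out, Mmp19 was at 11.6 and 26.8 CPM in WT and at 14.4 and 18.5 CPM in Ccr2-/- cells. Over all gated cells the difference of differences was -1.82 (adjusted p = 0.90).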

How the results depend on the processing

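The share of gated cells differed by -0.33 percentage points, with the WT pools on both sides of the Ccr2-/- pools. Under all 12 alternatives the difference of the means was also negative, at -0.37 to -4.84 percentage points. Several alternatives changed which cells were counted or out of which cells, so these values are not all shares of gated cells. The -4.84 is for cells with 2 or more markers among the cells of the fibroblast, pericyte, lymphatic and blood vessel gates. A comparison of 2 pools against 2 cannot pass the threshold. Counts of called genes moved more. Between the genotypes they were 0 in the gated cells, 74 with any read in place of the filter, 102 after thinning and 114 with DESeq2. Leaving out 1 pool at a time, without the day term, gave 0 to 59. Between the days they were 0, against 15 with any read and 22 with DESeq2, and 0 to 0 with a pool left out. For the difference from fibroblasts they were 0, against 62 with any read, 27 after thinning, 92 with DESeq2 and 1 in the cells with 2 or more markers. Of the alternatives added after the data were seen, all on cells with 2 or more markers, DESeq2 gave 58 (genotypes), 9 (days) and 35 (fibroblasts). Without cells of pericyte genes the counts were 32, 4 and 1, at 10000 reads or more the count against fibroblasts was 1, and leaving out 1 pool gave 1 to 63 for the genotypes and 0 to 9 for the days. The 9 came without the WT day 5 pool and 8 without the Ccr2-/- day 5 pool.

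Signs of leukocyte genes depended on the gate. The genotype difference turned to -1.20 (2 or more markers) and -0.48 (leukocyte genes under 200 CPM) for Il1b, to -2.23 and -1.74 for Clec7a, to -1.20 and -1.01 for Ccl3 (-0.098 with Cdh5 alone), to -1.36 and -1.47 for Cd300lf, to -1.84 and -0.46 for Inhba, to -0.38 and -0.36 for Cxcr2, and to -0.070 (2 or more markers) for Ccl4. The day difference turned to 0.60 and 1.40 for Ccl7, to 0.27 and 0.93 for Retnla, to -0.093 (2 or more markers) for Trf and to -0.068 (leukocyte genes) for Rnase4. In the cells with 2 or more markers, Csf1r turned to 0.39 without leukocyte-gene cells, and Thy1 to -1.16 and Postn (days) to 0.60 without cells of pericyte genes. Each named gene of the gated cells was counted once for each alternative in which it was tested. Of these counts, 195 kept their sign and call and 39 passed the threshold under DESeq2 or thinning. The other 20 turned in sign, as listed above.

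No paired analysis was possible because each group was a single pool without a replicate number, so the genotypes and days could not be paired. With 29 to 74 cells per pool and 1 residual degree of freedom, a difference of a single gene that edgeR did not call may still exist.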
